A study of Gallus gallus with 9 samples.

Results

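The comparison described here sets the 3 RNA-seq libraries labelled 3D_L against the 3 labelled 3D_E, 6 of the 9 libraries of the series. It covers 10317 of the 15294 genes measured, those with at least 1 FPKM in at least 3 of these 6 libraries. FPKM, the unit the authors deposited, is the number of sequenced fragments scaled to transcript length and to the mapped fragments of the library. All libraries came from wild-type DF-1 cells, chicken embryo fibroblasts that grow as an immortal line, and the series follows these cells from attached growth (2D) to growth in suspension without carriers (3D_E and 3D_L). What E and L stand for is not stated, and these names are kept here. No treatment, age or culture time is given for either group. Libraries are written as in their titles, 3D_E1 to 3D_E3 and 3D_L1 to 3D_L3.

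Fibroblasts normally divide only when they are spread on a surface, where integrins and focal adhesions pass on signals for growth, and when they lose that contact they tend to leave the cell cycle. Fibroblasts also build the collagen-rich matrix of connective tissue and take up and digest it in lysosomes. Cells in suspension can only hold on to each other and to matrix they secrete, so cadherins, hyaluronan and secreted signals are of interest beside the cell cycle and the matrix.

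Genes that mark fibroblasts were present in both groups. Of 12 such markers, 11 reached 1 FPKM in both, whereas PDGFRA lay between 0.06 and 0.25 FPKM. By the test given with the counts of changed genes, COL1A1, COL1A2, COL3A1, PDGFRB and LUM fell in 3D_L and DCN rose. VIM, THY1, FN1, PRRX1 and TWIST1 were not called. PDGFRB did not pass the threshold without 3D_E2, 3D_E3, 3D_L1, 3D_L2 or 3D_L3 (limma, adjusted p up to 0.14). Their summed level was 5512 to 6760 FPKM in 3D_E and 5108 to 5138 in 3D_L. Markers of cartilage and bone, 5 of 7 of them at 1 FPKM in a library of each group, summed to 83.7 to 95.3 and 41.7 to 42.5 FPKM, and those of adipocytes to 3.47 to 4.70 and 2.71 to 3.94. Endothelial markers summed to 3.49 to 4.5 FPKM in 3D_E and 10.8 to 11.3 in 3D_L, of which CDH5 made up most in 3D_L. Markers of epithelium summed to 0.9 to 2.78 and 0.84 to 1.57 FPKM, those of skeletal muscle, nerve and pluripotent cells to at most 0.51, and CLDN4, NANOG, DAZL and LIN28A were at 0 in all 6 libraries. Among 7 blood and immune markers only CD3E exceeded 3 FPKM, at 5.19 to 9.10, without PTPRC, which stayed at or below 0.69. The depth of the libraries is unknown, since the table holds no counts.

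The 3D_E libraries differed among themselves more than the 3D_L libraries, and along the axis that separates the groups. On log2(FPKM + 1), the root mean square SD over genes was 0.294 in 3D_E and 0.155 in 3D_L, and 7740 of 10317 genes varied more in 3D_E. The first principal component, with 80.3% of the variance, placed 3D_E1 at -16.1, 3D_E2 at -36.0 and 3D_E3 at -49.1, and the 3D_L libraries between 32.2 and 34.8. The root mean square difference between 3D_E1 and 3D_E3, 0.569, was close to that between 3D_E1 and 3D_L1, 0.590. In 8189 genes (79.4%) 3D_E2 held the middle value of the 3D_E libraries. Of the 604 genes that rose strongly in 3D_L, by the definition given with the counts of changed genes, 421 (69.7%) were higher in 3D_E1 than in 3D_E3, against 46.3% of all genes tested. Of the 550 that fell strongly, 423 (76.9%) were lower in 3D_E1 than in 3D_E3, against 53.6%. What set the 3D_E libraries apart was not tested. Whether the 3 libraries of a group are separate cultures is not stated. The p-values then describe how far these libraries scatter, which may be technical.

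**Figure D1:**
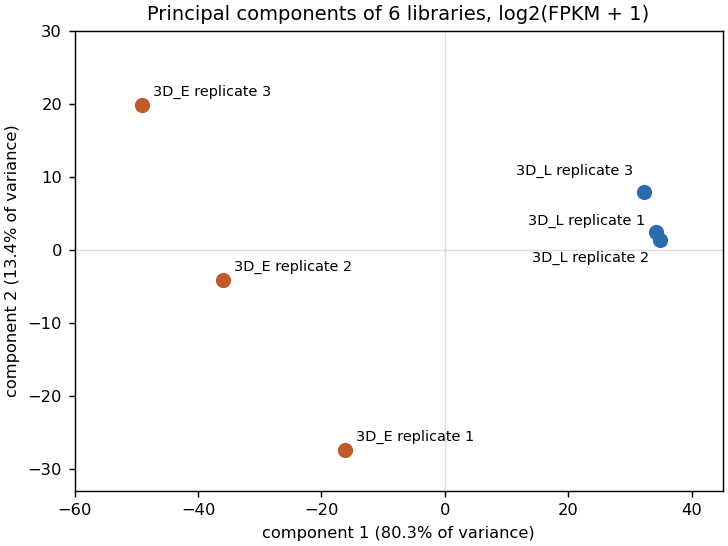
Principal components of the 6 libraries over 10317 genes on log2(FPKM + 1): component 1 (80.3% of variance) on the x axis and component 2 (13.4%) on the y axis, 1 point per library, 3D_E in orange and 3D_L in blue. The 3D_L points lie together between 32.2 and 34.8 on component 1, and the 3D_E points are spread from -49.1 to -16.1.

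A large part of the transcriptome differed between 3D_L and 3D_E. With limma, a linear model fitted to log2(FPKM + 1) over all genes, 4474 of 10317 genes changed (43.4%) at a Benjamini-Hochberg adjusted p under 0.05. Of these 2294 rose in 3D_L (22.2%) and 2180 fell (21.1%). With a log2 difference of at least 1 as well, called a strong change here, 604 rose (5.85%) and 550 fell (5.33%). All 3 libraries of 3D_L lay above all 3 of 3D_E in 3027 genes (29.3%) and below them in 2810 (27.2%). In bulk RNA, fewer cells of a type and less RNA per cell cannot be told apart. Differences on this scale understate the change of genes with low FPKM. The count of changed genes was 6408 without 3D_E1, 4331 without 3D_E3, 2382 without 3D_E2, 2710 without 3D_L1, 2659 without 3D_L2 and 3122 without 3D_L3. The count of strong falls was 864 without 3D_E1. Of the 1154 strongly changed genes, 1039 (90.0%) were called with each of the 6 libraries left out in turn, and of all changed genes 2291 of 4474 (51.2%).

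**Figure D2:**
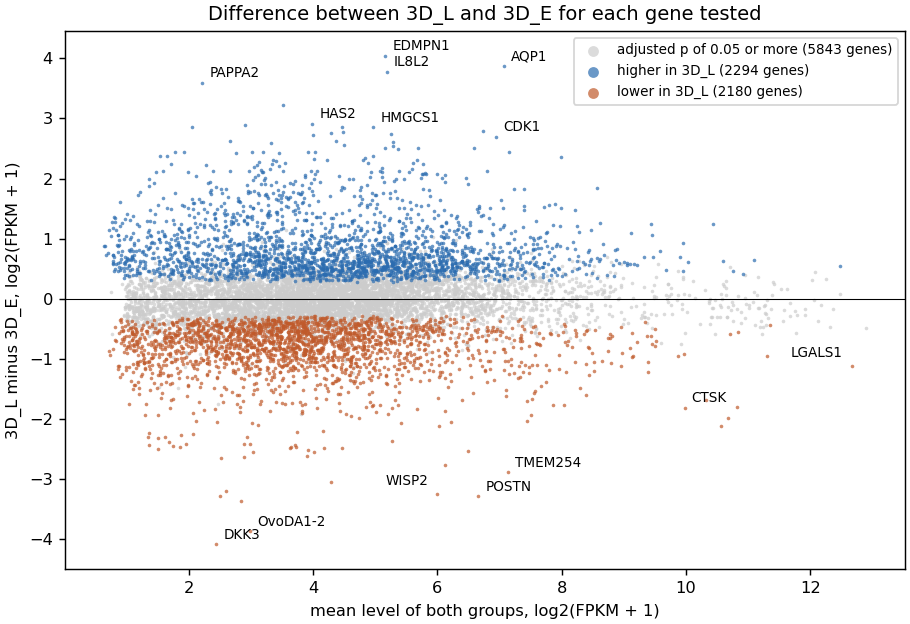
Each point is 1 of 10317 genes, with its mean level of both groups on log2(FPKM + 1) on the x axis and the difference 3D_L minus 3D_E on the same scale on the y axis. Blue marks the 2294 genes that rose, orange the 2180 that fell and grey the rest, and named genes among the extremes include EDMPN1, AQP1 and IL8L2 above and DKK3 and POSTN below.

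Most genes tested were present in both groups: 9732 reached 1 FPKM in all 6 libraries. Another 147 did so in every 3D_E and in no 3D_L library and 109 in every 3D_L and in no 3D_E library, with medians of the group mean of 1.93 and 1.64 FPKM. The first set was led by DKK3 and DIO2 and also held NPNT, a matrix ligand of integrin alpha-8, at 8.45, 9.04 and 6.9 FPKM in 3D_E and 0.96, 0.84 and 0.92 in 3D_L, and MYH7B, a myosin heavy chain, at 5.21, 7.22 and 8.76 and 0.72, 0.61 and 0.63. The second was led by PAPPA2 and TNFSF15 and also held GAP43, a growth cone protein, at 0.62, 0.2 and 0.31 and 5.51, 6.6 and 6.26, and CSF3, the colony-stimulating factor of granulocytes, at 0.2, 0.3 and 0.32 and 5.2, 5.65 and 5.86. These 4 genes were picked after their values were seen. They and DKK3, DIO2, PAPPA2 and TNFSF15 passed the filter through their higher group and so had to differ. The same holds for COL8A1, ADAMTS6, STC1, EGLN3, IL8L1, TLR3, CMPK2, BMP4 and PECAM1, which appear with their groups. At the edge of the filter, LMBR1L was just inside with a third-highest value of 1 FPKM and LHFPL4 just outside with 0.99.

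The gene with the highest mean level was LGALS1, galectin-1, in 3D_E and ACTB, beta-actin, in 3D_L. LGALS1 stood at 7660.3, 9834 and 11457 FPKM in 3D_E1, 3D_E2 and 3D_E3 and 4454, 3697 and 5099.9 in 3D_L1, 3D_L2 and 3D_L3, a fall of 1.12 on the log2 scale (limma, adjusted p = 0.00483). ACTB stood at 5258, 4647 and 4315 FPKM in 3D_E and 6595, 6622 and 7583 in 3D_L, a difference of 0.55 ± 0.15 (SE; limma, adjusted p = 0.0232). RPL37A and GAPDH were among the 5 highest genes of both groups. GAPDH read 5270.5, 5679.8 and 5738 FPKM in 3D_E and 5943, 5479.9 and 6139 in 3D_L, with overlapping groups. ACTB did not pass the threshold without 3D_E2, 3D_E3, 3D_L1, 3D_L2 or 3D_L3 (adjusted p up to 0.11).

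The 12 largest rises in 3D_L came from strongly changed genes with separate groups and at least 10 FPKM in the higher group. They were of genes with unlike functions. EDMPN1 (NCBI gene 425968, JAC1 in RefSeq) read 6.1, 7.38 and 10.1 FPKM in 3D_E1, 3D_E2 and 3D_E3 and 141, 127 and 162 in 3D_L1, 3D_L2 and 3D_L3, a difference of 4.04 ± 0.18 (SE; limma, adjusted p = 2.14e-05). AQP1 (NCBI gene 420384), a water channel of the plasma membrane, read 70.5, 20.8 and 19.9 FPKM in 3D_E and 516, 494 and 402 in 3D_L, a difference of 3.88 ± 0.44 (SE; limma, adjusted p = 0.000582). That all 3D_L values of both genes lay above the 3D_E values was required by this choice. Within 3D_E, 3D_E1 held the highest AQP1 level. IL8L2 (NCBI gene 396495), a chicken chemokine of the interleukin-8 family, read 6.79, 9.36 and 10.4 FPKM in 3D_E and 131, 132 and 134 in 3D_L, and 2D held 0.93 ± 0.399 FPKM (SD, n = 3). PAPPA2, a protease that cleaves insulin-like growth factor binding proteins, read 0.36, 0.3 and 0.33 FPKM in 3D_E and 16.6, 16.8 and 12.3 in 3D_L. HAS2, which makes hyaluronan at the plasma membrane, read 4.37, 4.69 and 5.24 FPKM in 3D_E and 41.6, 44.4 and 40.8 in 3D_L, whereas 2D held 4.68 ± 0.281. In these 3 genes, ranked by their difference, the spread within each group was small beside the gap between the groups. VNN1, a pantetheinase that RefSeq lists as VNN2, rose from 1.76 ± 0.399 to 19.4 ± 1.75 FPKM (mean ± SD, n = 3 in each group), and SNAI1, a repressor of epithelial genes, from 7.21 ± 1.44 to 58 ± 1.83. TNFSF15, a ligand of the tumour necrosis factor family, rose from 0.527 ± 0.0551 to 10.3 ± 3.12. The other 4 of the 12 were HMGCS1, CAV1, DCTD and SMC2, described with their groups.

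The 12 largest falls, chosen by the same rule, included genes of secreted or matrix proteins, among them DKK3, POSTN, WISP2, PODN and ADAMTS17. DKK3 (NCBI gene 396023), a secreted member of the Dickkopf family, read 20.3, 23.7 and 20.3 FPKM in 3D_E1, 3D_E2 and 3D_E3 and 0.17, 0.43 and 0.36 in 3D_L1, 3D_L2 and 3D_L3, a difference of -4.09 on the log2 scale. POSTN (NCBI gene 395429), which encodes the matrix protein periostin, read 355, 340.1 and 252 FPKM in 3D_E and 29.9, 32.3 and 30.8 in 3D_L, a difference of -3.29 ± 0.15 (SE; limma, adjusted p = 2.14e-05). Both were near absent in 2D, at 0.157 ± 0.127 and 0.823 ± 0.158 FPKM. WISP2, a matricellular protein of the CCN family, read 170.0, 194 and 228 FPKM in 3D_E and 19.2, 19.4 and 20.3 in 3D_L, and PODN, the leucine-rich proteoglycan podocan, 59.2, 58.4 and 49.3 FPKM in 3D_E and 5.66, 5.93 and 5.76 in 3D_L. The rule of choice required separate groups and ranked by difference, so the gap in these 4 genes was fixed by the choice. DIO2, the deiodinase that activates thyroid hormone, fell from 16.8 ± 3.46 to 0.803 ± 0.13 FPKM, and GEM, a small GTPase, from 17.6 ± 6.27 to 0.947 ± 0.119. TMEM254, IL17REL, the LIM-domain protein FHL1 and the secreted protease ADAMTS17 fell by 2.88, 2.76, 2.66 and 2.63 on the log2 scale. OvoDA1-2 read 23.9, 30.7 and 28.7 FPKM in 3D_E and 2.08, 0 and 1.43 in 3D_L. PITHD1 read 6.46, 20.6 and 34.2 FPKM in 3D_E and 0, 0 and 4.15 in 3D_L, with 3D_E1 lowest and 3D_E3 highest in 3D_E, and a difference of -3.37 ± 0.76 (SE; limma, adjusted p = 0.0107).

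**Figure D3:**
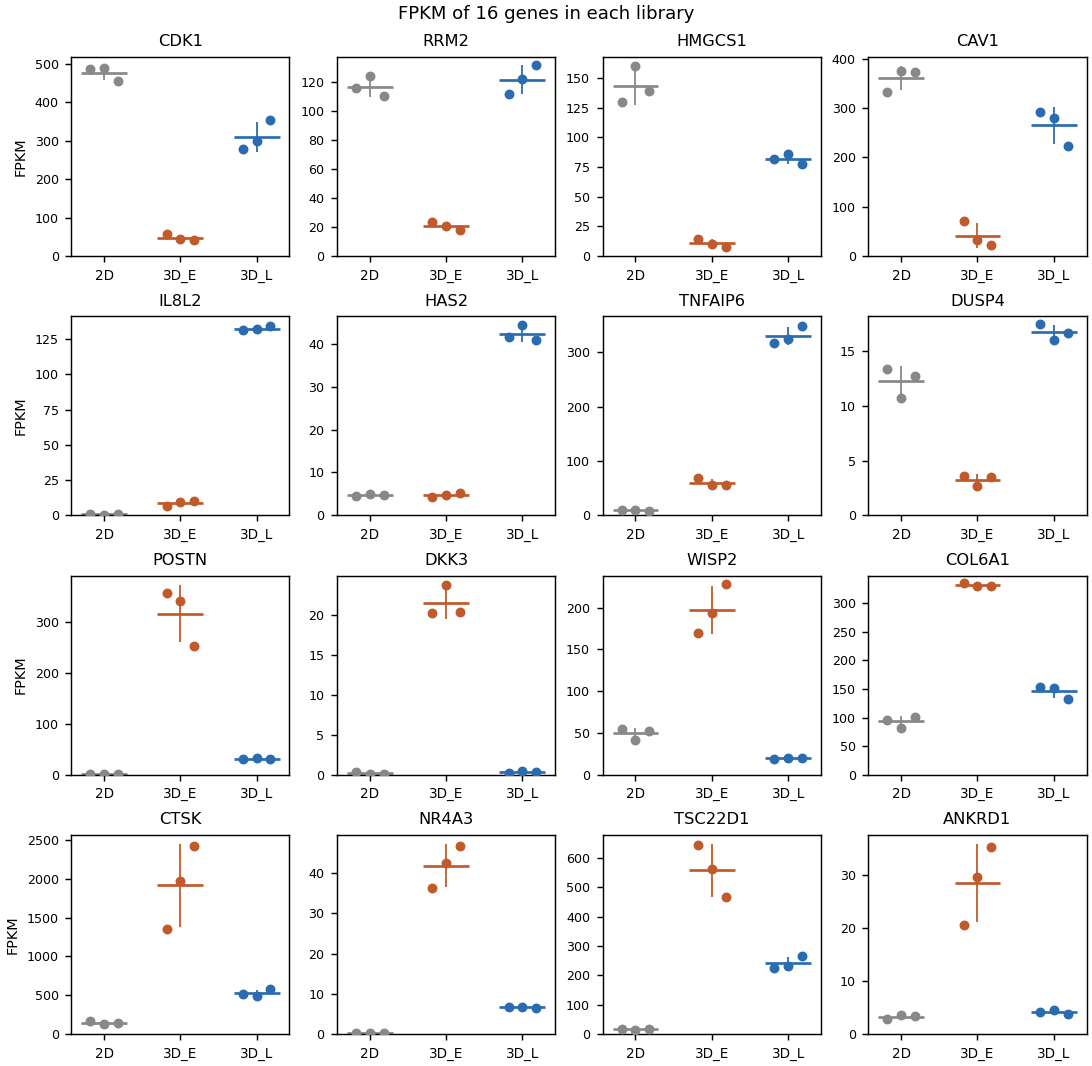
FPKM of 16 genes (y axes, linear from 0) in each library of 2D (grey), 3D_E (orange) and 3D_L (blue), with the mean as a horizontal and ± SD as a vertical line, n = 3. CDK1, RRM2, HMGCS1, CAV1, IL8L2, HAS2, TNFAIP6 and DUSP4 are higher in every 3D_L than in every 3D_E library, and the other 8 genes are lower.

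The genes were also read by 41 lists of pathways, complexes and markers, each described by how many tested members rose and fell, beside 22.2% and 21.1% of all genes, and by the median log2 difference of its members, beside -0.008 for all genes. Lists of cell division and sterol synthesis held mostly risen genes. Those of chaperones and cell-cell adhesion held more risen than fallen genes, and those of collagens and lysosomes more fallen than risen genes. Members named with a list include its changed members with the largest differences, which favours separate groups among them. Counts with a library left out are given with a list mainly where they moved most. Counts not given could also shift, by less.

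**Figure D4:**
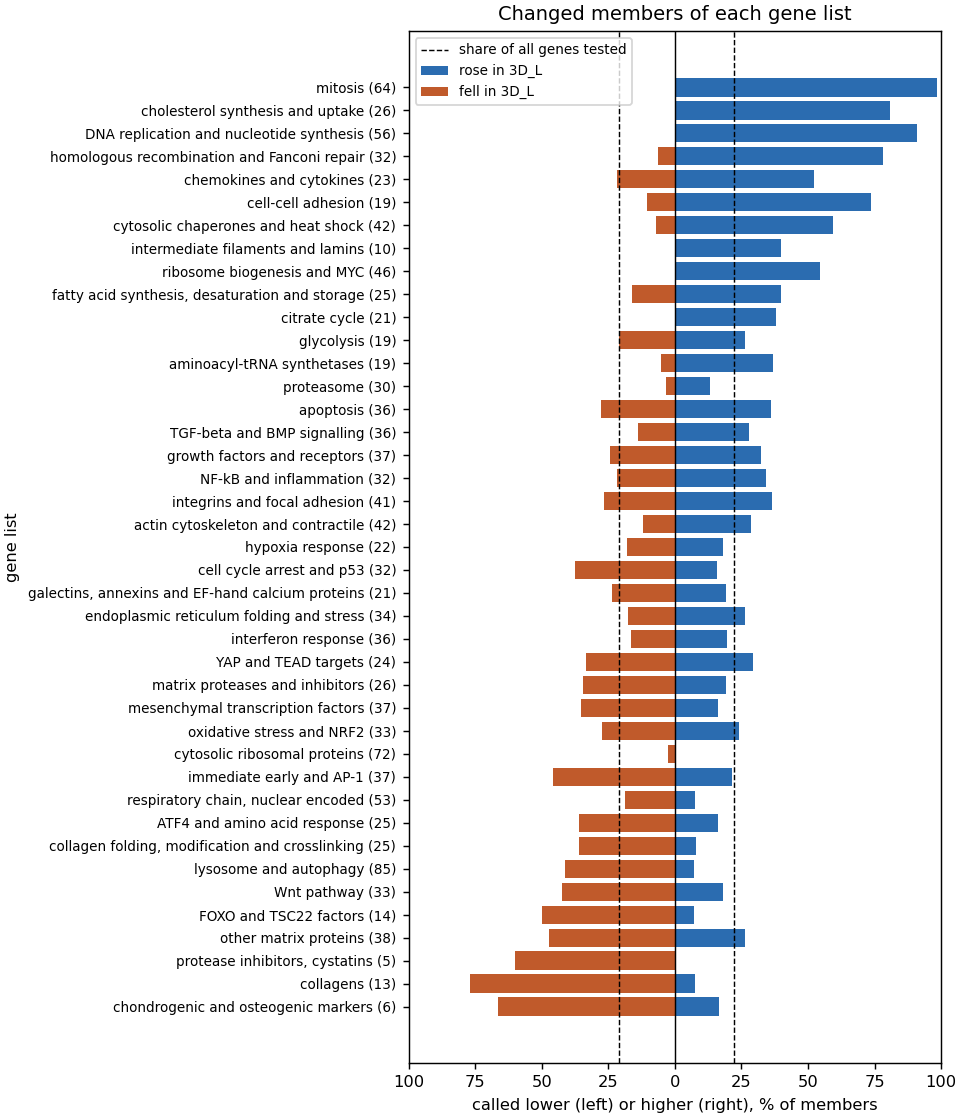
For each of 41 gene lists (y axis, tested members in brackets), the share of members that rose (blue, right) and fell (orange, left) in 3D_L, in % on the x axis, and dashed lines mark the 22.2% and 21.1% of all genes that rose and fell. Mitosis, cholesterol synthesis and DNA replication stand at the top with 0 members that fell, and collagens and the chondrogenic and osteogenic markers at the bottom.

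**Figure D5:**
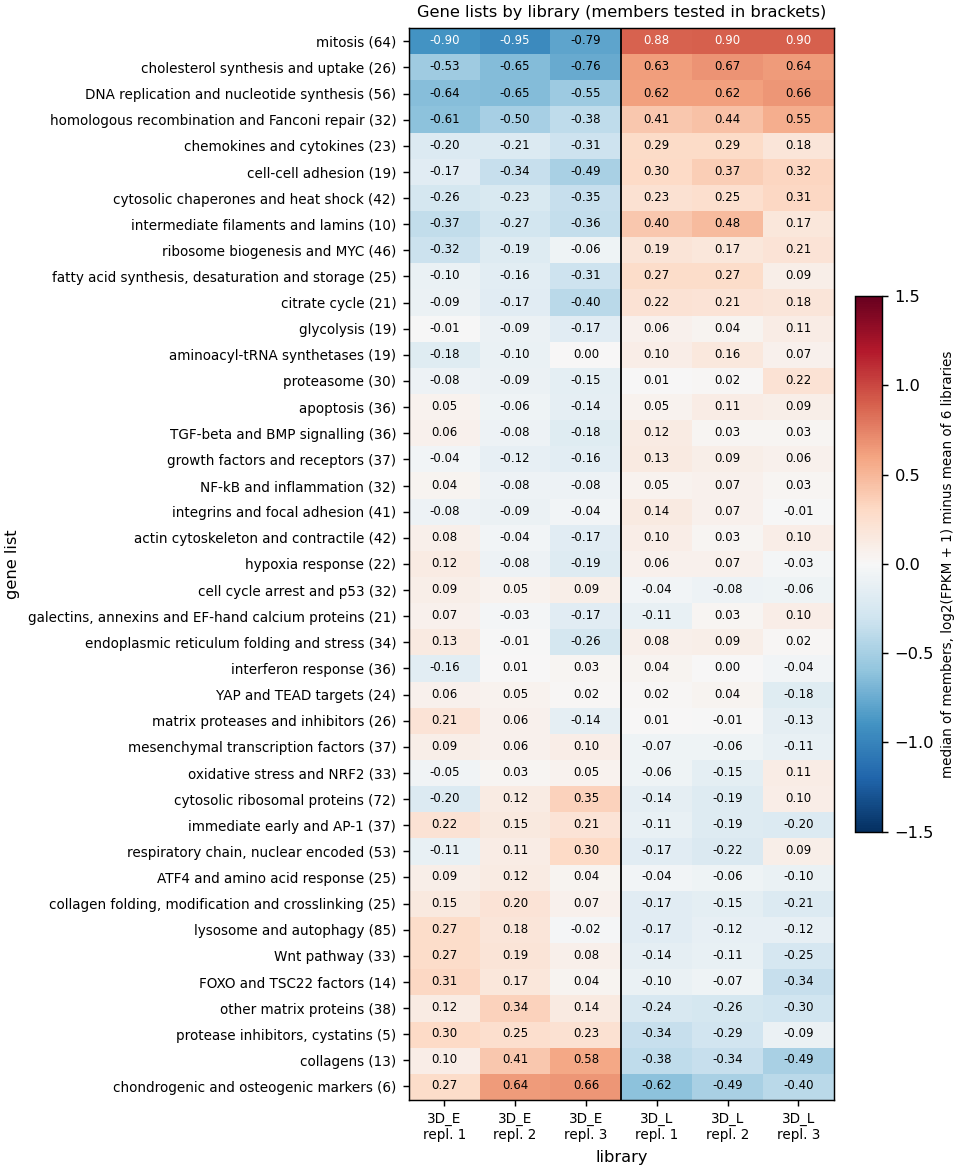
Median over the members of each list of log2(FPKM + 1) minus the mean of the 6 libraries, for each library (x axis) and list (y axis), as colour and printed value. For mitosis the 3D_E libraries read -0.95 to -0.79 and the 3D_L libraries 0.88 to 0.90, whereas the ribosomal proteins range from -0.20 in 3D_E1 to 0.35 in 3D_E3.

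Nearly all mitosis genes rose. Of these, 63 of 64 tested members rose and 0 fell, with a median difference of 1.75, and 62 of them rose strongly. CDK1 (NCBI gene 396252), the kinase that drives entry into mitosis, read 56.5, 44.4 and 41.1 FPKM in 3D_E1, 3D_E2 and 3D_E3 and 279, 299 and 355 in 3D_L1, 3D_L2 and 3D_L3, a difference of 2.70 ± 0.16 (SE; limma, adjusted p = 3.38e-05). PLK1, a kinase of spindle and centrosome, read 18.9, 11.7 and 11.2 FPKM in 3D_E and 95.8, 95.9 and 97.1 in 3D_L. The 2 groups were separate in both genes, and the 2D means were 477 ± 18.3 and 114 ± 1.92 FPKM. AURKA, listed under the number that RefSeq names AURKB, rose from 16.5 ± 4.18 to 95.4 ± 4.64 FPKM, and ANLN, which acts in the cleavage furrow, from 15.2 ± 2.67 to 92.8 ± 2.88. SMC2, a subunit of condensin, read 9.3, 5.74 and 4.92 FPKM in 3D_E and 48.6, 53.1 and 46 in 3D_L, and CKAP2, a microtubule protein of the spindle, rose from 7.42 ± 3.1 to 49.1 ± 2.14. CCNB2, a B-type cyclin, rose from 36.2 ± 2.05 to 115 ± 10.2, CDC20, an activator of the anaphase-promoting complex, from 21.1 ± 1.49 to 87.1 ± 4.15, and the proliferation marker MKI67 from 6.64 ± 0.672 to 24.7 ± 2.39. The spindle motor KIF11 and the topoisomerase TOP2A rose by 2.27 and 2.26 on the log2 scale. The count of risen mitosis genes lay between 62 and 64 with each library left out in turn.

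Genes of DNA replication and nucleotide synthesis rose alongside, and 51 of 56 tested members rose and 0 fell (median 1.26). DCTD, a deaminase on the path to thymidine nucleotides, read 10.4, 6.93 and 5.59 FPKM in 3D_E and 50.5, 56.2 and 63.6 in 3D_L, a difference of 2.77 ± 0.20 (SE; limma, adjusted p = 8.04e-05). RRM2, a subunit of ribonucleotide reductase, read 23.4, 20.4 and 18.1 FPKM in 3D_E and 111, 122 and 131 in 3D_L, and its 3D_L level was near that of 2D, 116 ± 6.97 FPKM. TK1, thymidine kinase, read 21, 14.1 and 10.2 FPKM in 3D_E and 100.3, 95 and 86.2 in 3D_L, with 3D_E1 highest in its group. MCM2, MCM3 and MCM6, subunits of the replicative helicase, rose by 1.76, 2.34 and 2.08 on the log2 scale, and GINS1, a helicase partner, by 2.27. PCNA, the sliding clamp, rose from 79.6 ± 18.3 to 281 ± 10.6 FPKM, and UHRF1, which keeps DNA methylation through replication, from 12.5 ± 1.09 to 64 ± 2.53. Of homologous recombination and Fanconi repair genes, 25 of 32 tested members rose and 2 fell (median 0.97). The nuclease EXO1 rose from 3.07 ± 0.375 to 23.6 ± 1.08, the ubiquitin ligase subunit BARD1 from 5.23 ± 1.12 to 20 ± 0.548 and the checkpoint kinase CHEK1 from 5.77 ± 1.5 to 20.4 ± 1.85. BRCA1 rose by 1.40 on the log2 scale. The damage kinase ATM and the translocase FANCM fell by 0.61 and 0.83. BRCA2, a mediator of homologous recombination, read 2.12, 2.76 and 3.28 FPKM in 3D_E and 4.28, 4.51 and 3.74 in 3D_L, a difference of 0.49 ± 0.14 (SE; limma, adjusted p = 0.03). ATM did not pass the threshold without 3D_E2, 3D_E3, 3D_L1, 3D_L2 or 3D_L3 (adjusted p up to 0.15). FANCM did not pass the threshold without 3D_L3 (an adjusted p of 0.053). BRCA2 did not pass the threshold without 3D_E2, 3D_L1, 3D_L2 or 3D_L3 (adjusted p up to 0.11).

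Genes of cell cycle arrest and p53 were divided: 5 of 32 tested members rose and 12 fell, with a median of 0.08, of the other sign than the balance of calls. GADD45B, a stress-induced growth arrest gene, read 55.8, 69.7 and 90.9 FPKM in 3D_E and 18.6, 17.7 and 22 in 3D_L, a difference of -1.82 ± 0.18 (SE; limma, adjusted p = 0.000345), with the groups apart and 3D_E3 highest. The anti-proliferative gene BTG2 fell from 57 ± 5.34 to 25.7 ± 0.405 FPKM. CDKN1B and CDKN1C, inhibitors of cyclin-dependent kinases, fell by 0.74 and 0.86 on the log2 scale, while the inhibitor CDKN1A was near 1 FPKM in both groups (0.69, 0.94 and 1.25 FPKM in 3D_E and 0.86, 1.23 and 1.29 in 3D_L) and was not called. TP53INP2, a regulator of autophagy, and TXNIP, an inhibitor of thioredoxin, fell by 1.33 and 0.81. The cyclin CCND3 rose from 13.4 ± 2.8 to 38.6 ± 2.93, and the kinase PLK2 from 13.3 ± 2.18 to 32 ± 0.902. Of the cell cycle arrest and p53 list, members that rose numbered 3 without 3D_E2, 3D_L1 or 3D_L2 and 9 without 3D_E1, and that fell numbered 7 without 3D_E2.

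Genes of sterol synthesis were higher in 3D_L at early and late steps of the pathway. Of the genes of cholesterol synthesis and uptake, 21 of 26 tested members rose and 0 fell (median 1.30). HMGCS1 (NCBI gene 396379), an early enzyme, read 14.7, 10.2 and 7.52 FPKM in 3D_E1, 3D_E2 and 3D_E3 and 81.7, 85.6 and 77.8 in 3D_L1, 3D_L2 and 3D_L3, a difference of 2.85 ± 0.21 (SE; limma, adjusted p = 7.85e-05). Its groups were separate by the choice of the 12 largest rises, and 3D_E1 was highest in its group. IDI1, which isomerises the isoprenoid unit, SQLE, squalene epoxidase, and CYP51A1, lanosterol demethylase, rose by 2.10, 2.31 and 2.08 on the log2 scale. NSDHL, a late sterol dehydrogenase, rose from 5.26 ± 1.19 to 40 ± 1.48 FPKM and MSMO1, a sterol methyl oxidase, from 52.8 ± 12.3 to 229 ± 13.6. The controlling factor SREBF2 rose from 48.7 ± 11.3 to 123 ± 16.8.

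Fatty acid genes moved less, and 10 of 25 tested members rose and 4 fell (median 0.39). FABP7, a fatty acid binding protein, was the exception in size, at 136, 97.5 and 99.7 FPKM in 3D_E and 537, 535 and 645 in 3D_L, a difference of 2.37 ± 0.16 (SE; limma, adjusted p = 6.02e-05), against 1857 ± 47 FPKM in 2D. The elongase ELOVL6 and the desaturase FADS2 rose by 1.02 and 0.84 on the log2 scale. FASN, fatty acid synthase, and ACLY, which makes cytosolic acetyl-CoA, rose by 0.65 and 0.79. The falls were of AGPAT2, GPAM and LPIN1, enzymes of glycerolipid synthesis, by 0.75, 0.56 and 0.70, and of the acetyl-CoA synthetase ACSS2, by 0.73. SCD, the main desaturase, overlapped between the groups at 50.6, 38 and 21.9 FPKM in 3D_E and 62.5, 62.6 and 34.7 in 3D_L and was not called.

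Of ribosome biogenesis and MYC genes, 25 of 46 tested members rose and 0 fell (median 0.45), although MYC itself was not called, at 42.8, 52.6 and 51.4 FPKM in 3D_E and 35.1, 34.8 and 45.6 in 3D_L. PAICS, ATIC, GART and PPAT, enzymes of purine synthesis in that list, rose by 1.27, 1.13, 1.05 and 1.03 on the log2 scale, and the nucleolar proteins NOLC1 and GAR1 by 1.07 and 1.01. Of aminoacyl-tRNA synthetases, 7 of 19 tested members rose and 1 fell, and 42.1% changed against 43.4% of all genes. Their rises were of at most 0.83 (NARS), and CARS was the member that fell, by 0.45. Of proteasome genes, 4 of 30 tested members rose and 1 fell, and 16.7% changed against 43.4% of all genes. PSMD1 rose by 0.61, PSMD3 by 0.59, PSME3 by 0.51 and PSMC6 by 0.41, and PSMD7 fell by 0.38, all of them subunits of the base, lid or activator of the proteasome. Of the ribosome biogenesis and MYC list, members that rose numbered 14 without 3D_E2 and 15 without 3D_L2, and that fell numbered 5 without 3D_E1. Of the aminoacyl-tRNA synthetases list, members that rose numbered 2 without 3D_E2, 3D_L1 or 3D_L2. Of the proteasome list, members that rose numbered 1 without 3D_E2 or 3D_L2, 2 without 3D_L1 and 11 without 3D_E1, and that fell numbered 4 without 3D_E1. CARS did not pass the threshold without 3D_E2, 3D_L1, 3D_L2 or 3D_L3 (adjusted p up to 0.11). PSMD1 and PSMD7 did not pass the threshold without 3D_E2, 3D_L1 or 3D_L2 (adjusted p up to 0.058 and 0.14). PSME3 did not pass the threshold without 3D_E2 or 3D_L2 (adjusted p up to 0.066). PSMC6 did not pass the threshold without 3D_E2, 3D_E3, 3D_L1, 3D_L2 or 3D_L3 (adjusted p up to 0.12).

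Ribosomal protein genes differed more among the 3D_E libraries than between the groups. Of these, 0 of 72 tested members rose and 2 fell, with a median of -0.16, but with quantile normalization 10 rose and 5 fell, with a median of 0. Those that fell were the paralogues RPL22L1 and RPL26L1, by 0.54 and 0.55 on the log2 scale. Their share of the summed FPKM was 20.9%, 24.6% and 27.0% in 3D_E1, 3D_E2 and 3D_E3 and 22.0%, 21.4% and 23.7% in 3D_L. The median difference was 0.14 against 3D_E1 alone and -0.46 against 3D_E3 alone. Of the cytosolic ribosomal proteins list, members that fell numbered 29 without 3D_E1. Subunits of the respiratory chain showed the same order of the 3D_E libraries, with medians of 0.02 against 3D_E1 and -0.37 against 3D_E3, and 4 of 53 tested members rose and 10 fell. NDUFA1, a subunit of complex I, read 322, 521 and 658 FPKM in 3D_E and 226, 232 and 317 in 3D_L. CYCS, cytochrome c, rose by 0.88 on the log2 scale. Of the respiratory chain, nuclear encoded list, members that rose numbered 0 without 3D_E2 and 1 without 3D_L1, 3D_L2 or 3D_L3, and that fell numbered 1 without 3D_E2 or 3D_L2, 2 without 3D_L1, 4 without 3D_E3 and 21 without 3D_E1. RPL22L1 did not pass the threshold without 3D_E2, 3D_E3, 3D_L1 or 3D_L2 (adjusted p up to 0.15). RPL26L1 did not pass the threshold without 3D_E2, 3D_E3, 3D_L1, 3D_L2 or 3D_L3 (adjusted p up to 0.16). NDUFA1 did not pass the threshold without 3D_E2, 3D_L1 or 3D_L2 (adjusted p up to 0.099). CYCS did not pass the threshold without 3D_E2 or 3D_L3 (adjusted p up to 0.06).

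In the citrate cycle 8 of 21 tested members rose and 0 fell (median 0.34). CS, citrate synthase, read 76, 62.7 and 61 FPKM in 3D_E and 126, 119 and 113 in 3D_L, and SUCLG2, a succinyl-CoA ligase subunit, rose from 5.49 ± 1.72 to 16.3 ± 1.24 FPKM. In glycolysis 5 of 19 tested members rose and 4 fell, shares near the 22.2% and 21.1% of all genes. The kinase PGK1 rose from 383 ± 109 to 794 ± 6.65 and the mutase PGAM1 by 0.79 on the log2 scale, while ENO2, an enolase, fell from 26.9 ± 8.19 to 8.98 ± 0.609. PKM, pyruvate kinase, which RefSeq names PKLR at this gene number, rose by 0.69, and the glucose transporter SLC2A1 fell by 0.46. Of hypoxia response genes, 4 of 22 tested members rose and 4 fell, shares not above those of all genes. The mitophagy receptor BNIP3 fell from 135 ± 18.6 to 73.7 ± 6.12, and VEGFA was not called (12.9, 10.6 and 12.6 FPKM in 3D_E and 11.3, 10.5 and 12.2 in 3D_L). WSB1, STC1 and BHLHE40 fell by 1.23, 1.13 and 1.07, and INSIG2, EGLN3, ERRFI1 and BHLHE41 rose. In oxidative stress and NRF2 genes, 8 of 33 tested members rose and 9 fell, also near the shares of all genes. HMOX1, heme oxygenase, read 141, 94.7 and 70.7 FPKM in 3D_E and 284, 264 and 273 in 3D_L, a difference of 1.47 ± 0.23 (SE; limma, adjusted p = 0.00252). The secreted peroxidase GPX3 fell from 91.7 ± 9.73 to 39.4 ± 4.2. NFE2L2, the gene of NRF2 itself, was not called, at 103.5, 82.5 and 63.3 FPKM in 3D_E and 73.5, 70.9 and 73.2 in 3D_L. Nor was FTH1, at 2799, 3628 and 3943 FPKM in 3D_E and 2529, 2409 and 3043 in 3D_L. Of the citrate cycle list, members that rose numbered 4 without 3D_E2, 3D_L1 or 3D_L2 and 13 without 3D_E1. Of the glycolysis list, members that rose numbered 8 without 3D_E1, and that fell numbered 2 without 3D_E2, 3D_L1, 3D_L2 or 3D_L3. Of the hypoxia response list, members that rose numbered 8 without 3D_E1. Of the oxidative stress and NRF2 list, members that rose numbered 4 without 3D_E2 and 5 without 3D_L1, 3D_L2 or 3D_L3, and that fell numbered 3 without 3D_L1 and 4 without 3D_E2 or 3D_L2. SLC2A1 did not pass the threshold without 3D_E2, 3D_L1, 3D_L2 or 3D_L3 (adjusted p up to 0.089). BHLHE41 did not pass the threshold without 3D_E2 or 3D_L2 (adjusted p up to 0.065).

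More chaperone and heat shock genes rose than fell in 3D_L, as 25 of 42 tested members rose and 3 fell (median 0.53). HSP90AA1, the inducible HSP90, read 305, 205 and 115 FPKM in 3D_E1, 3D_E2 and 3D_E3 and 724, 719 and 639.5 in 3D_L1, 3D_L2 and 3D_L3, a difference of 1.84 ± 0.32 (SE; limma, adjusted p = 0.00372). The 3D_E libraries of this gene spanned a wide range, yet none reached the 3D_L libraries. HSP90AB1, the mitochondrial chaperonin HSPD1, HSPH1 and the co-chaperone DNAJA1 rose by 1.13, 1.21, 1.30 and 1.13 on the log2 scale. The small heat shock protein HSPB1 went the other way, at 369, 535 and 729.9 FPKM in 3D_E and 200.4, 196 and 258 in 3D_L, a difference of -1.27 ± 0.25 (SE; limma, adjusted p = 0.00614). The co-chaperone BAG2 and the heat shock factor HSF3 fell by 0.64 and 1.08. Of the chaperone list, members that rose numbered 19 without 3D_E2, 20 without 3D_L1 and 21 without 3D_L2, and that fell numbered 6 without 3D_E1. In the endoplasmic reticulum list 9 of 34 tested members rose and 6 fell, and 44.1% changed against 43.4% of all genes. HSPA5, the main chaperone of the endoplasmic reticulum, and CRELD2 rose by 0.57 and 1.27, and DERL3, a factor of protein degradation, fell from 25.1 ± 3.43 to 6.64 ± 0.628 FPKM. EIF2AK3, the stress sensor PERK, read 26.6, 26.5 and 27.1 FPKM in 3D_E and 12.9, 14.1 and 12.3 in 3D_L, lower in every 3D_L library. Of the ATF4 and amino acid list 4 of 25 tested members rose and 9 fell, with DDIT3, a stress-induced factor, at 19.7, 30.2 and 47.5 FPKM in 3D_E and 10.8, 9.36 and 12.8 in 3D_L and ASNS, asparagine synthetase, up by 0.79. The other members that rose were STC2, XPOT and CHAC1, by 1.08, 0.90 and 0.84. ATF4 itself fell by 0.63. Of the endoplasmic reticulum list, 5 members rose and 6 fell without 3D_E2, 3D_L1 or 3D_L2, which turned the balance, and 14 rose and 8 fell without 3D_E1. Of the ATF4 list, members that rose numbered 9 without 3D_E1, and that fell numbered 4 without 3D_E2 or 3D_L2 and 5 without 3D_L1. ATF4 did not pass the threshold without 3D_E2, 3D_L1 or 3D_L2 (adjusted p up to 0.073). XPOT did not pass the threshold without 3D_E2, 3D_L1, 3D_L2 or 3D_L3 (adjusted p up to 0.065).

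Collagen genes were lower in 3D_L. Of the chains, 1 of 13 tested members rose and 10 fell (median -0.82). In 12 of 13 every 3D_L library lay below every 3D_E library, against 27.2% of all genes tested. COL6A1, a chain of the beaded filaments, read 336, 331 and 331 FPKM in 3D_E1, 3D_E2 and 3D_E3 and 154, 152 and 132 in 3D_L1, 3D_L2 and 3D_L3, a difference of -1.19 ± 0.11 (SE; limma, adjusted p = 0.000222). COL1A2, a chain of the main fibrils, read 206, 214 and 221 FPKM in 3D_E and 123, 126 and 114 in 3D_L. COL3A1, another fibril chain, read 257, 256 and 265 FPKM in 3D_E and 167, 173 and 154 in 3D_L. Both varied little within either group. COL1A1 was less even, at 283, 472 and 663 FPKM in 3D_E and 252, 255 and 248 in 3D_L, a difference of -0.82 ± 0.28 (SE; limma, adjusted p = 0.0468), and its level in 3D_E1 lay close to 3D_L. COL27A1 and COL8A1, minor chains, fell by 1.59 and 1.41 on the log2 scale. The chain that rose was COL12A1, which binds to fibrils, by 0.62. The 2D levels of COL1A1 and COL6A1 were 839.5 ± 162 and 93.3 ± 9.92 FPKM. Of enzymes that fold, modify and crosslink collagen, 2 of 25 tested members rose and 9 fell (median -0.26). PCOLCE, which helps to trim procollagen, fell from 14.3 ± 4.42 to 5.3 ± 0.63 FPKM, and P3H1, a prolyl hydroxylase, by 0.63 on the log2 scale. The members that rose were P4HA3, another prolyl hydroxylase, and PCOLCE2, by 0.42 and 0.53. SERPINH1, the collagen chaperone, was not called, at 421, 326 and 236 FPKM in 3D_E and 227, 220.1 and 206 in 3D_L. Of the collagens list, members that fell numbered 6 without 3D_E2, 3D_L2 or 3D_L3. Of the collagen folding, modification and crosslinking list, members that rose numbered 5 without 3D_E1, and that fell numbered 5 without 3D_E2 or 3D_L2. COL1A1 did not pass the threshold without 3D_E2, 3D_E3, 3D_L1, 3D_L2 or 3D_L3 (adjusted p up to 0.13). COL12A1 did not pass the threshold without 3D_E2, 3D_L1 or 3D_L2 (adjusted p up to 0.083). P4HA3 did not pass the threshold without 3D_E2, 3D_L1, 3D_L2 or 3D_L3 (adjusted p up to 0.12).

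Other matrix proteins moved both ways, as 10 of 38 tested members rose and 18 fell (median -0.49). Besides POSTN and the leucine-rich proteoglycan PODN, 2 further genes of such proteoglycans fell, LUM, lumican, and a gene listed as ASPN. LUM read 709.9, 539.9 and 360.5 FPKM in 3D_E and 181, 187 and 184 in 3D_L, a difference of -1.48 ± 0.23 (SE; limma, adjusted p = 0.00237), and ASPN, which RefSeq names BGN at this gene number, fell from 7.91 ± 1.96 to 1.13 ± 0.141 FPKM. SPARC, a matricellular protein, read 735, 592 and 406 FPKM in 3D_E and 296, 266 and 262 in 3D_L. In contrast DCN, decorin, read 375, 227 and 144 FPKM in 3D_E and 511, 518 and 495 in 3D_L, higher in every 3D_L library, a difference of 1.14 ± 0.31 (SE; limma, adjusted p = 0.0218). SPON1, a secreted adhesion protein, rose from 16 ± 9.48 to 68.5 ± 10.9 and EMILIN2, an elastic fibre protein, from 6.32 ± 1.57 to 28.4 ± 3.79. FN1, fibronectin, was not called, at 779, 630.1 and 533 FPKM in 3D_E and 901, 893 and 682 in 3D_L, nor was TNC, tenascin-C, at 117, 99.4 and 86.7 FPKM in 3D_E and 144, 141 and 109.6 in 3D_L. Among proteases and their inhibitors 5 of 26 tested members rose and 9 fell: ADAMTS5 and ADAMTS6 fell by 1.45 and 1.23 on the log2 scale, and ADAM12 and the inhibitor SERPINE2 rose by 1.28 and 1.22. MMP2, the most abundant metalloprotease named here, was not called (2369, 1687 and 1196 FPKM in 3D_E and 2162, 2309 and 2190.0 in 3D_L). Of the other matrix proteins list, members that rose numbered 6 without 3D_E2, 3D_L2 or 3D_L3. Of the matrix proteases and inhibitors list, members that rose numbered 9 without 3D_E1. DCN did not pass the threshold without 3D_E2, 3D_L1, 3D_L2 or 3D_L3 (adjusted p up to 0.075).

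Most genes of cell-cell adhesion rose. Of these, 14 of 19 tested members rose and 2 fell (median 0.66). CDH2, N-cadherin, read 172, 123 and 80 FPKM in 3D_E1, 3D_E2 and 3D_E3 and 354, 366 and 316 in 3D_L1, 3D_L2 and 3D_L3, a difference of 1.52 ± 0.25 (SE; limma, adjusted p = 0.00326). CDH5, a cadherin best known from endothelium, read 1.96, 1.3 and 1.26 FPKM in 3D_E and 9.65, 10.2 and 9.66 in 3D_L. The endothelial marker PECAM1 read 1.11, 1.77 and 2.35 FPKM in 3D_E and 0.78, 0.76 and 0.71 in 3D_L. It passed the filter through 3D_E alone, so its fall was fixed by the filter. KDR, TEK and VWF stayed at or below 0.10 FPKM, and FLT4 lay between 0.21 and 0.72. CDH11, known from mesenchyme, fell from 28.7 ± 7.57 to 8.19 ± 0.428 FPKM. CDH13 and PCDH19 rose by 1.38 and 1.37 on the log2 scale, and GJA1, the gap junction protein connexin 43, read 49, 25.6 and 10.2 FPKM in 3D_E and 81, 80.8 and 62.5 in 3D_L. Of the cell-cell adhesion list, members that rose numbered 9 without 3D_E2, 3D_L1 or 3D_L2. GJA1 did not pass the threshold without 3D_E2, 3D_L1, 3D_L2 or 3D_L3 (adjusted p up to 0.086).

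Of integrin and focal adhesion genes, 15 of 41 tested members rose and 11 fell (median 0.12). CAV1, the coat protein of caveolae, read 70.2, 33.1 and 21.7 FPKM in 3D_E1, 3D_E2 and 3D_E3 and 293, 280.1 and 223 in 3D_L1, 3D_L2 and 3D_L3, a difference of 2.80 ± 0.37 (SE; limma, adjusted p = 0.00121), with 3D_E1 highest of its group. Its partner CAV2 rose from 45.6 ± 16.1 to 106 ± 4.95 FPKM. Among receptors, ITGA6, the alpha chain of a laminin receptor, rose from 60 ± 18.7 to 168 ± 22.2, and ITGA8, the alpha chain of a nephronectin receptor, read 33.8, 39 and 39.1 FPKM in 3D_E and 7.15, 7.65 and 7.17 in 3D_L, a difference of -2.20 ± 0.11 (SE; limma, adjusted p = 2.14e-05). ITGB1, the common beta chain, and ITGAV rose by 0.57 and 1.27 on the log2 scale. VCL, vinculin, rose by 1.03, and PTK2, focal adhesion kinase, fell by 0.76. Of the integrins and focal adhesion list, 9 members rose and 9 fell without 3D_L1 or 3D_L2, which made the balance even. Without 3D_E2, 9 rose and 8 fell. ITGB1 did not pass the threshold without 3D_E2, 3D_E3, 3D_L1, 3D_L2 or 3D_L3 (adjusted p up to 0.12). ITGAV did not pass the threshold without 3D_E2, 3D_L1 or 3D_L2 (adjusted p up to 0.11). PTK2 did not pass the threshold without 3D_E2 or 3D_L3 (adjusted p up to 0.067).

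In the actin list 12 of 42 tested members rose and 5 fell (median 0.11), and 40.5% changed against 43.4% of all genes. DIAPH3, a formin that builds actin filaments, rose from 2.03 ± 0.206 to 12.3 ± 0.752 FPKM. RHOB, a small GTPase, read 399, 307 and 238 FPKM in 3D_E and 94.3, 94.7 and 93.5 in 3D_L, a difference of -1.70 ± 0.18 (SE; limma, adjusted p = 0.000447). The contractile genes TAGLN, MYL9 and LMOD1 fell by 1.04, 1.06 and 1.27 on the log2 scale, whereas ACTA2, smooth muscle actin, was not called (442, 260.2 and 216 FPKM in 3D_E and 316, 301 and 275 in 3D_L). Of intermediate filaments and lamins 4 of 10 tested members rose and 0 fell (median 0.52). LMNB1 and LMNB2, the B-type lamins, rose from 7.23 ± 2.9 to 27.4 ± 2.65 and 5.96 ± 2.79 to 37.5 ± 16.6, and 3D_L3 held the lowest LMNB2 level of its group, 18.4. LBR, the lamin B receptor, and NEFL, a neurofilament chain, rose by 1.34 and 1.44 on the log2 scale. VIM, vimentin, was lower in every 3D_L library without passing the threshold (3019.6, 2537 and 2185 FPKM in 3D_E and 1833, 1843 and 2021 in 3D_L, adjusted p = 0.0586). Of the actin cytoskeleton and contractile list, members that rose numbered 7 without 3D_L2 or 3D_L3, and that fell numbered 9 without 3D_E1. Among intermediate filaments and lamins, 1 fell without 3D_E1, 2 without 3D_E3 and 2 with all 9 libraries in the fit.

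Targets of the YAP and TEAD factors, which respond to spreading and tension in many cells, moved both ways, and 7 of 24 tested members rose and 8 fell. YAP1 itself rose by 1.13 on the log2 scale, at 9.78, 5.72 and 3.8 FPKM in 3D_E and 17.3, 17 and 10.1 in 3D_L. Well-known targets fell. CTGF read 659, 692 and 696 FPKM in 3D_E and 337, 363 and 395 in 3D_L. CYR61 read 668, 711 and 795 FPKM in 3D_E and 390.3, 389.9 and 448 in 3D_L. Every 3D_L library lay below every 3D_E library in both. ANKRD1, a repeat protein of muscle and stressed cells, read 20.6, 29.6 and 35.2 FPKM in 3D_E and 4.15, 4.6 and 3.75 in 3D_L, a difference of -2.48 ± 0.19 (SE; limma, adjusted p = 0.000101). CRIM1 and the kinase NUAK2 rose by 1.26 and 1.06. Of the YAP and TEAD targets list, members that rose numbered 2 without 3D_E2, 3D_L1 or 3D_L2 and 4 without 3D_L3. YAP1 did not pass the threshold without 3D_E2, 3D_L1 or 3D_L2 (adjusted p up to 0.085).

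More lysosome and autophagy genes fell than rose, as 6 of 85 tested members rose and 35 fell (median -0.27). CTSK (NCBI gene 395818), a collagen-degrading cathepsin, read 1354, 1974 and 2416 FPKM in 3D_E1, 3D_E2 and 3D_E3 and 516, 495 and 575 in 3D_L1, 3D_L2 and 3D_L3, a difference of -1.82 ± 0.21 (SE; limma, adjusted p = 0.000674). Its 3D_E libraries spread widely, with 3D_E3 highest, and all lay above the 3D_L libraries. ATP6V0E1, a subunit of the proton pump, read 514, 509 and 428 FPKM in 3D_E and 129.7, 127 and 167 in 3D_L, a difference of -1.78 ± 0.15 (SE; limma, adjusted p = 0.000135). TPP1, a peptidase, and SMPD1, acid sphingomyelinase, fell by 1.61 and 1.47 on the log2 scale, and ULK1, the kinase that starts autophagy, from 26.3 ± 7.85 to 6.29 ± 0.452 FPKM. CTSB, an abundant cathepsin, read 1786, 1451 and 939.5 FPKM in 3D_E and 748, 720.4 and 677 in 3D_L. LAPTM5, a lysosomal membrane protein best known from blood cells, was among the 6 that rose, at 25, 22.9 and 17.7 FPKM in 3D_E and 98.6, 96.9 and 103 in 3D_L, a difference of 2.15 ± 0.14 (SE; limma, adjusted p = 5.01e-05). CTSD, another cathepsin, overlapped between the groups at 238, 160.2 and 49.9 FPKM in 3D_E and 264, 245 and 146 in 3D_L and was not called. Of 5 tested protease inhibitors 0 rose and 3 fell, among them CST3, cystatin C, at 814, 805 and 732 FPKM in 3D_E and 400.2, 375 and 426 in 3D_L. Of the lysosome and autophagy list, members that rose numbered 11 without 3D_E1. The members that fell ranged from 25 without 3D_E2 to 45 without 3D_E3. CTSB did not pass the threshold without 3D_E2, 3D_L1, 3D_L2 or 3D_L3 (adjusted p up to 0.068).

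More chemokine and cytokine genes rose than fell, as 12 of 23 tested members rose and 5 fell (median 0.66). Besides IL8L2, its relative IL8L1 rose from 0.243 ± 0.095 to 3.28 ± 0.237 FPKM, and reads shared between the 2 genes could have been split either way. CXCL12, a chemokine that guides stem and blood cells, read 22, 11.3 and 9.11 FPKM in 3D_E and 67.2, 60.6 and 54.1 in 3D_L, a difference of 2.11 ± 0.28 (SE; limma, adjusted p = 0.00122), against 123 ± 3.92 FPKM in 2D. IL11, a cytokine of the interleukin-6 family, read 7.67, 6.73 and 8.98 FPKM in 3D_E and 28.4, 29.4 and 25.7 in 3D_L, with no overlap. The genes that fell were the receptors IL13RA1 and IL1R1, by 1.10 and 0.77 on the log2 scale, and the cytokines IL16, CSF1 and IL18, by 0.87, 0.63 and 0.32. IL6, IL1B and PTGS2 were at or below 0.21 FPKM in all 6 libraries and were not tested. IL16 did not pass the threshold without 3D_E2, 3D_L2 or 3D_L3 (adjusted p up to 0.057). IL18 did not pass the threshold without 3D_E1, 3D_E2, 3D_L1, 3D_L2 or 3D_L3 (adjusted p up to 0.16).

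In the NF-kB and inflammation list 11 of 32 tested members rose and 7 fell (median 0.12). TNFAIP6, a secreted hyaluronan-binding protein, read 69, 55.9 and 55.1 FPKM in 3D_E1, 3D_E2 and 3D_E3 and 317, 324 and 349 in 3D_L1, 3D_L2 and 3D_L3, a difference of 2.45 ± 0.12 (SE; limma, adjusted p = 2.34e-05), and 2D held 9.27 ± 0.707 FPKM. ACOD1, which makes itaconate, rose from 1.34 ± 0.335 to 6.36 ± 0.393 and the sensor TLR3 from 0.38 ± 0.102 to 1.83 ± 0.146. Among the members that fell, NFKBIZ, a nuclear regulator of the pathway, read 43.1, 64.1 and 90.5 FPKM in 3D_E and 26.4, 28.4 and 29.5 in 3D_L, and TNFAIP3, an inhibitor of it, 2.61, 3.07 and 2.73 FPKM in 3D_E and 1.35, 1.79 and 1.23 in 3D_L. NFKBIA, the classical inhibitor, fell by 0.53 on the log2 scale. Of interferon response genes 7 of 36 tested members rose and 6 fell, shares not above the 22.2% and 21.1% of all genes. CMPK2 fell by 1.29, while MX1 was at or below 0.04 FPKM. Of the NF-kB and inflammation list, members that rose numbered 5 without 3D_L2, 6 without 3D_E2 and 7 without 3D_L1 or 3D_L3. Of the interferon response list, members that rose numbered 3 without 3D_E2 or 3D_L2 and 4 without 3D_L1, and that fell numbered 1 without 3D_E2, 3D_L1 or 3D_L2 and 10 without 3D_E1. NFKBIA did not pass the threshold without 3D_E2, 3D_E3, 3D_L1, 3D_L2 or 3D_L3 (adjusted p up to 0.13).

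Among immediate early genes and feedback regulators 8 of 37 tested members rose and 17 fell (median -0.18). NR4A3, an orphan nuclear receptor, read 36.2, 42.4 and 46.8 FPKM in 3D_E1, 3D_E2 and 3D_E3 and 6.61, 6.8 and 6.54 in 3D_L1, 3D_L2 and 3D_L3, a difference of -2.48 ± 0.12 (SE; limma, adjusted p = 2.14e-05), and was at 0.16 ± 0.0458 FPKM in 2D. KLF4, a zinc finger factor, read 37.8, 51.6 and 68.1 FPKM in 3D_E and 14.5, 15.4 and 20.9 in 3D_L. FOS, a part of AP-1, read 28.5, 35.8 and 48.4 FPKM in 3D_E and 14.8, 15.9 and 18.8 in 3D_L. Both were lowest in 3D_E1 within 3D_E, yet above all 3D_L libraries. The phosphatases that switch off MAP kinases were split: DUSP1 read 99.1, 107 and 134 FPKM in 3D_E and 35, 34 and 36.6 in 3D_L, lower in 3D_L, and DUSP4 read 3.63, 2.65 and 3.46 FPKM in 3D_E and 17.4, 16 and 16.6 in 3D_L, higher in 3D_L. DUSP6, which acts on ERK, and SPRY4, an inhibitor of growth factor signals, rose by 1.18 and 1.90 on the log2 scale. JUN, the partner of FOS, was not called, at 144, 125 and 123 FPKM in 3D_E and 113, 108 and 126 in 3D_L.

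Of FOXO and TSC22 factors 1 of 14 tested members rose and 7 fell (median -0.36). TSC22D1, a leucine zipper regulator, read 645, 562 and 467 FPKM in 3D_E and 224, 233 and 264 in 3D_L, a difference of -1.20 ± 0.15 (SE; limma, adjusted p = 0.000868), and its 3D_L level was still above the 2D mean of 15.8 ± 2.24 FPKM. FOXO3, a factor of starvation and stress, fell from 4.48 ± 0.996 to 1.31 ± 0.0462, and the muscle atrophy ligase FBXO32 from 20.5 ± 2.01 to 9.79 ± 0.67. FKBP5, a co-chaperone of the glucocorticoid receptor, was the member that rose, at 66.2, 73.2 and 89.8 FPKM in 3D_E and 138, 128 and 120.5 in 3D_L. Of apoptosis genes 13 of 36 tested members rose and 10 fell: BMF and BOK, which promote cell death, fell by 1.15 and 1.36 on the log2 scale, and BAK1 and the death receptor FAS rose by 0.88 and 0.58. Of the FOXO and TSC22 factors list, members that rose numbered 4 without 3D_E1. Without 3D_L3, 9 apoptosis genes rose and 9 fell, and without 3D_E2, 3D_L1 or 3D_L2, 9 rose and 8 fell.

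TGF-beta and BMP genes were divided between ligands, and 10 of 36 tested members rose and 5 fell (median 0.13). The share changed in this list, 41.7%, was near the 43.4% of all genes. TGFB3, a ligand, read 17.9, 12.5 and 11.9 FPKM in 3D_E1, 3D_E2 and 3D_E3 and 85.2, 86.5 and 79.5 in 3D_L1, 3D_L2 and 3D_L3, a difference of 2.51 ± 0.16 (SE; limma, adjusted p = 4.52e-05). INHBA, the subunit of activin A, read 246, 338 and 426 FPKM in 3D_E and 113, 118 and 129.8 in 3D_L, lower in every 3D_L library, and INHBB, the subunit of activin B, 2.47, 2.98 and 3.51 FPKM in 3D_E and 8.18, 8.53 and 7.86 in 3D_L, higher in every library. BMP2 and BMP4 also moved apart, from 3.21 ± 1.04 to 8.4 ± 2.77 and from 3.82 ± 1.81 to 0.633 ± 0.114 FPKM. ID1, a target of BMP signals, overlapped between the groups at 129, 196 and 276 FPKM in 3D_E and 216, 195 and 276 in 3D_L and was not called. Of growth factors and receptors 12 of 37 tested members rose and 9 fell: ANGPTL4, a lipase inhibitor, read 34.1, 27.9 and 33.2 FPKM in 3D_E and 107, 104 and 105 in 3D_L, and FLT1, a VEGF receptor, and EDNRA, an endothelin receptor, rose by 1.26 and 1.31 on the log2 scale. Of the TGF-beta and BMP signalling list, members that rose numbered 5 without 3D_E2 or 3D_L2 and 6 without 3D_L1. Of the growth factors and receptors list, members that fell numbered 3 without 3D_E2 and 5 without 3D_L1 or 3D_L2.

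In the Wnt list 6 of 33 tested members rose and 14 fell (median -0.28), and the falls took in ligands, secreted inhibitors and targets alike. Among ligands WNT4 and WNT9A fell from 7.97 ± 0.994 to 1.49 ± 0.311 and 9.56 ± 1.05 to 2.22 ± 0.586 FPKM. WIF1, a secreted inhibitor, read 17.6, 17.4 and 13.2 FPKM in 3D_E and 2.42, 2.46 and 2.4 in 3D_L, and NOTUM, an enzyme that inactivates Wnt ligands, 95.2, 86.6 and 78.7 FPKM in 3D_E and 19.9, 19.8 and 20 in 3D_L, a difference of -2.07 ± 0.11 (SE; limma, adjusted p = 2.49e-05). AXIN2, a widely used target, fell from 41 ± 5.63 to 20.4 ± 2.45, and the receptor TNFRSF19 from 18.9 ± 2.87 to 2.36 ± 0.267. Among the 33 tested members, every 3D_L library lay below every 3D_E library in 16 and above in 9, against 27.2% and 29.3% of all genes. These 6 genes were among the 16, as naming genes for large differences favours. Strong changes in the list were 2 rises and 7 falls. Of the Wnt pathway list, members that rose numbered 3 without 3D_E2, 3D_L1 or 3D_L2.

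Of mesenchymal transcription factors 6 of 37 tested members rose and 13 fell, but without 3D_E1 12 rose and 11 fell. SNAI1 and its relative SNAI2 moved apart: SNAI1 read 8.44, 5.62 and 7.57 FPKM in 3D_E and 60, 57.7 and 56.4 in 3D_L, and SNAI2 14.1, 13.5 and 11.7 FPKM in 3D_E and 3.52, 4.22 and 3.4 in 3D_L. MSX1 and MSX2, homeobox factors, did likewise, from 15 ± 3.98 to 4.87 ± 0.454 and from 4.68 ± 1.41 to 10.2 ± 1.49 FPKM. PRRX1, a factor of limb and connective tissue, was not called, at 361, 346 and 363 FPKM in 3D_E and 311, 308 and 342 in 3D_L. Of 6 tested chondrogenic and osteogenic markers 1 rose and 4 fell: RUNX2, a main factor of bone formation, read 15.3, 14.3 and 14.2 FPKM in 3D_E and 6.78, 6.7 and 5.95 in 3D_L, COMP, a cartilage matrix protein, 28.6, 26 and 24.1 FPKM in 3D_E and 7.25, 6.23 and 5.45 in 3D_L, and SPP1, osteopontin, 15.8, 18.8 and 16.1 FPKM in 3D_E and 3.92, 2.26 and 3.44 in 3D_L. ALPL, alkaline phosphatase, rose by 0.53 on the log2 scale, and MGP, matrix Gla protein, was not called, at 6.28, 8.07 and 10.6 FPKM in 3D_E and 7.51, 7.81 and 11.2 in 3D_L. Of galectins, annexins and EF-hand proteins 4 of 21 tested members rose and 5 fell, near the 22.2% and 21.1% of all genes. Besides LGALS1, LGALS3 fell from 99.1 ± 15.2 to 47.8 ± 11.2 FPKM and CALB2, calretinin, read 223, 250.5 and 276 FPKM in 3D_E and 103, 89 and 112 in 3D_L, and was listed at 0 in 2D. The rises were of the calmodulin gene CALM2, NUCB2, ANXA7 and LGALS8, by 1.05, 1.10, 0.62 and 0.61 on the log2 scale. Without 3D_E2, 3D_L1 or 3D_L2, 8 mesenchymal transcription factors fell. Of the galectins, annexins and EF-hand calcium proteins list, members that rose numbered 2 without 3D_E2, 3D_L1, 3D_L2 or 3D_L3 and 8 without 3D_E1, and that fell numbered 3 without 3D_E2, 3D_L1, 3D_L2 or 3D_L3 and 8 without 3D_E1. ALPL did not pass the threshold without 3D_E2, 3D_L1 or 3D_L2 (adjusted p up to 0.093). BGLAP, the other bone marker that fell, overlapped between the groups, at 11.9, 25.9 and 30.3 FPKM in 3D_E and 7.77, 10.2 and 13.1 in 3D_L. Its call was lost without 3D_E2, 3D_E3, 3D_L1, 3D_L2 or 3D_L3 (limma, adjusted p up to 0.14). CALM2 did not pass the threshold without 3D_E2, 3D_L1, 3D_L2 or 3D_L3 (adjusted p up to 0.092). LGALS8 did not pass the threshold without 3D_E2, 3D_E3, 3D_L1, 3D_L2 or 3D_L3 (adjusted p up to 0.14).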

How the data were processed

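Poly-A selected RNA of 9 libraries, 3 per group, was sequenced, per the labels' protocols. The authors deposited 1 table of FPKM values per gene, rounded to 2 decimals, per the file headers. The submitters' processing notes name HISAT2 2.0.5, R 3.4.2, DESeq2 and the build GRCg6a, with no roles. How strand and reads shared by near-identical genes were handled is not stated in these sources, so values of overlapping or near-identical genes are less certain. The table holds no counts, so depth is unknown and counting intervals were not computed. Of its 94 columns, 82 that match no library here were not used, nor was 1 line without a gene.

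Genes that reached 1 FPKM in 3 or more of the 6 libraries were kept, and log2(FPKM + 1), with a pseudocount of 1, was tested with limma 3.58.1 in R 4.3.3. The fit had 1 mean per group, 4 residual degrees of freedom and an empirical Bayes trend, with Benjamini-Hochberg adjustment over all 10317 genes. An exact permutation test of 3 against 3 libraries cannot go below p = 0.1 and was not used. Steps were tested on simulated data. Python 3.11.15 and matplotlib 3.10.9 made tables and figures.

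Named genes were the 12 largest strong rises and falls with groups that do not overlap, at 10 FPKM or more in the higher group and with a symbol other than a LOC number, the up to 6 changed genes of each of the 41 lists with the largest differences, well-known list members marked as such, and the 5 genes of highest mean in each group. Members behind counts of 5 or fewer, and genes that reached the filter in 1 group alone, were named after their values were seen. Members and lists were chosen with earlier results of these data known, some lists in an earlier analysis of them, so they are not independent evidence of direction. Symbols are the table's, and 903 differ from RefSeq at the same gene number. Of 1781 list entries, 1575 were found and 1327 tested. Alternatives were other pseudocounts, filters, scalings, variance models, all 9 libraries in the fit, a replicate block and each library left out. Fits with a library left out had 3 residual degrees of freedom, so a call lost there need not mean that it rested on that library.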

Additional observations from a re-analysis of the deposited data

How the results depend on the processing

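No called gene of the main comparison changed sign under any alternative. Counts of changed genes ran from 3703 with a filter of 5 FPKM to 5550 with all 9 libraries in the fit, apart from settings without a library. The first was of 8462 genes tested and the second of 10317. The setting with no filter gave 4515 changed genes of 15046 tested, so counts under different filters do not compare directly. With a pseudocount of 5, strong changes numbered 610, of which 359 rose and 251 fell, since it shrinks the differences of low genes. With a pseudocount of 0.1 they numbered 1544, and their balance turned to 763 rises and 781 falls. With each library left out in turn, changed genes ranged from 2382 to 6408, rises from 1297 to 3095 and falls from 1085 to 3313. Strong changes then ranged from 920 to 1642, strong rises from 530 to 778 and strong falls from 390 to 864. Quantile normalization turned the balance to 2163 rises and 2205 falls. Of the 333 genes named by rule, which leave out those named after their values were seen, 51 lost their call without 3D_E2, 48 without 3D_L2, 45 without 3D_L1, 34 without 3D_L3, 13 without 3D_E3 and 0 without 3D_E1, and 19 lost it with no filter. With no filter the balance turned for the actin list, with 8 rises and 9 falls, and for the respiratory chain, with 4 rises and 3 falls. It also turned for the oxidative stress and NRF2 list, with 8 rises and 7 falls, and was even for integrins and focal adhesion, with 11 of each. With all 9 libraries in the fit the oxidative stress list had 11 rises and 10 falls. Quantile normalization gave the galectin list 6 rises and 5 falls, and integrins and focal adhesion 11 of each. With a replicate block 4424 genes changed, 2240 up and 2184 down. The deviations of same-numbered libraries from their group means correlated at 0.082, -0.026 and 0.184, and 3D_E1 correlated best with 3D_L2, at 0.217, so the numbers were not taken as pairs. Low FPKM values cannot be given an error here because depth is unknown. Groups of 3 were too small for a test of single outlying libraries.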

Other observations

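The following genes, outside the 41 lists and next in the ranking of strong changes, were chosen after their values were seen, so their direction was given by the choice. CENPO, a centromere protein, read 3.06, 2.59 and 1.88 FPKM in 3D_E and 19.1, 17.1 and 17.3 in 3D_L, and CEP55, which acts in abscission, 3.63, 2.82 and 2.38 FPKM in 3D_E and 19.4, 20.4 and 21.2 in 3D_L. KPNA2, a nuclear import adaptor, read 50.7, 34.5 and 33.6 FPKM in 3D_E and 222, 219.7 and 239.7 in 3D_L, and SLBP, which binds histone messages, rose from 2.92 ± 0.227 to 17.5 ± 2.06 FPKM. The neuropeptide gene VIP read 7.49, 7.56 and 9.96 FPKM in 3D_E and 48.7, 50.6 and 62 in 3D_L, against 37.7 ± 3.05 in 2D, and KCNJ5, a potassium channel, 1.52, 1.58 and 1.52 FPKM in 3D_E and 15.7, 14.9 and 13.6 in 3D_L. RGS2, a brake on G protein signals, and UPP1, uridine phosphorylase, rose by 2.33 and 2.42 on the log2 scale.

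The next falls included ALDH1A3, which makes retinoic acid, at 45, 38 and 26.4 FPKM in 3D_E and 5.2, 5.2 and 4.51 in 3D_L, and PAPSS2, which makes the sulphate donor for glycosaminoglycans, at 33, 38.9 and 43 FPKM in 3D_E and 6.07, 5.56 and 5.37 in 3D_L. Both were below 1 FPKM in 2D. HES1, a Notch target, read 102, 139 and 167 FPKM in 3D_E and 29.3, 25.2 and 35.6 in 3D_L, and AMHR2, the receptor of anti-Mullerian hormone, 28.5, 31.6 and 29.9 FPKM in 3D_E and 5.09, 4.21 and 4.52 in 3D_L. C1QTNF3, a secreted protein, and PRODH, proline dehydrogenase, fell by 2.54 and 2.05 on the log2 scale. ARIH1, a ubiquitin ligase, read 1409, 3727 and 5320 FPKM in 3D_E and 707, 752 and 849 in 3D_L, with 3D_E1 lowest of its group.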
